A study of Mus musculus with 6 samples.

Results

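DNA repair and damage checkpoint genes were compared between E13-labelled (late) and E10-labelled (early) cells of the Atoh1 lineage from the mouse embryo. The members were a list of 46 gene symbols from the main repair pathways, and 44 of them had at least 1 probe set annotated to that symbol alone, 104 probe sets in all of the 45101 on the Affymetrix Mouse Genome 430 2.0 array. Xrcc2 and Trp53 had no such probe set in the annotation used and were not analysed here. Both groups were Swiss Webster embryos with Atoh1-CreER, a tamoxifen-inducible recombinase under Atoh1 control, and the RCE reporter, which switches on EGFP after recombination. The dams received tamoxifen by gavage (4 mg per 35 g) at E13.5 for the late group and at E10.5 for the early group, and in both the r1/isthmus region was dissociated at E14.5 and sorted for EGFP. Each group held 3 samples, each on 1 array, and nothing in the labels says whether they came from separate litters or how many embryos were pooled. P-values thus reflect no more than the spread of these 3 samples per group, possibly technical in origin. Labelled cells are those with active Atoh1 near the day of dosing, so the groups differ both in the day of labelling and in the time that passed between labelling and sorting.

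DNA is repaired by several routes that are used at different times in the life of a cell. Homologous recombination copies the lost sequence from the sister chromatid and so works after replication, the Fanconi anaemia pathway frees replication forks from crosslinks, and mismatch repair corrects errors of the replicative polymerases. Non-homologous end joining ligates broken ends without a template and serves dividing and postmitotic cells alike, and base excision repair removes damaged bases in both. Atr and Chek1 form the kinase relay that answers stalled forks, and Atm and Chek2 the one that answers double-strand breaks, with p53 as a common effector. Granule cell precursors of the rhombic lip, which descend from Atoh1-expressing cells, divide rapidly before birth and after, and several repair deficiencies are known to affect the developing cerebellum.

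The signals were MAS5 intensities on a linear scale, each array scaled to the same trimmed mean, with array medians of 97.7 to 112 units. Late arrays correlated with each other at 0.938 to 0.945 (Spearman, over all probe sets) and early arrays at 0.874 to 0.893, and between groups the range was 0.845 to 0.886. The Actb control signal near the 3′ end over that near the 5′ end, a ratio that rises as RNA is degraded, was 12.9 to 16.1 in late arrays and 17.4 to 26.3 in early arrays, while the same ratio for Gapdh overlapped, at 9.47 to 12.1 in late and 10.7 to 13.2 in early arrays. The part of RNA quality in the differences below was not tested. Of 10 lineage markers Atoh1, Barhl1, Pax6, Zic1, Meis1, Lhx2, Lhx9, Neurod1, En1 and En2, 9 were tested, and the sum of the 10 signals was 70330 to 75010 units in late and 41300 to 44090 units in early arrays. The markers went both ways. Of the 9, 5 were higher in late cells (limma, adjusted p under 0.05), among them Atoh1 at 13.1-fold, against 14% of all tested genes. Another 2 were higher in early cells, among them Lhx9 at 10.8-fold, against 16.2% of all tested genes. Markers of microglia (8 genes) summed to 324 to 481 units in late and 517 to 1442 units in early arrays. For endothelium (8 genes) the sums were 369.5 to 1595 and 482 to 2682 units, for mesenchyme (8 genes) 379 to 1166 and 764 to 2706 units, and for erythroid cells (6 genes) 170 to 310 and 226 to 372 units. Oligodendrocyte precursor markers (8 genes) summed to 1096 to 1952 against 3074 to 3839 units, markers of the GABAergic lineage (6 genes) to 678 to 998 against 916 to 1793 units, and radial and astroglial markers (8 genes, Vim among them) to 28540 to 34850 against 20430 to 22720 units. At or below the array median on all 6 arrays were 3 of the 8 microglial, 3 of the 8 endothelial, 2 of the 8 mesenchymal, 4 of the 6 erythroid, 2 of the 8 oligodendrocyte precursor and 2 of the 8 glial markers, among them Aif1, Pecam1, Dcn, Hba-a1 and Gfap. Others lay above the median on all 3 early arrays, such as C1qb, Cldn5 (142, 822 and 93.1 units in late against 472, 212.5 and 1456 units in early arrays), Kdr, Rgs5 and Aldh1l1, the last of which was higher in early cells. Csf1r was also higher in early cells, as were Olig1 (13.6-fold), Olig2, Gad1 and Gad2. In the other direction, Pdgfra was 3.27-fold higher in late cells. Of 6 tested radial and astroglial markers, 2 passed in each direction, with Vim 2.12-fold and Slc1a3 1.89-fold higher in late cells. The part of these cells in the results was not tested.

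DNA repair genes were higher in E13-labelled cells or did not pass the test, and none of the representative probe sets passed as higher in E10-labelled cells. The probe set brightest on average (log2 scale) stood for its gene. Testing was limited to probe sets whose signal exceeded the array median on 3 or more of the 6 arrays, which 43 of the 44 genes met. Of these 43, 20 were higher in late cells at an adjusted p under 0.05 (limma, Benjamini-Hochberg over all 23471 tested probe sets), while 14% of all 11064 tested genes were. On its representative probe set, no member was higher in early cells (limma, 0 at an unadjusted p under 0.05), against 16.2% of all tested genes. With the trend and robust settings of limma, Trp53bp1 passed as higher in early cells (adjusted p = 0.0239). At least 2-fold differences were seen for 18 of the 20, against 10.1% of all genes in that direction. The median log2 difference, late minus early, was 1.07 over the 43 members and 0.03 over all tested genes. In 31 members all 3 late arrays lay above all 3 early arrays, against 26.4% of all genes, and in 2 members, Xrcc4 and Trp53bp1, all late arrays lay below all early arrays, against 26% of all genes. Rad54b, Xrcc3 and Fance entered the test only through the late arrays, since all 3 of their early arrays lay at or below the median, so a difference in these 3 follows partly from the filter. Of the other called members, Rad18 and Fancb had 1 early array above the median, and Rad54l, Xrcc5, Chek1 and Chek2 had 2. They too needed late arrays to enter the test, so the filter bears on them as well.

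Leaving out late replicate 1, 2 or 3 left 8, 11 and 10 members higher in late cells, with 6.04%, 6.36% and 5.87% of all genes in that direction. Leaving out early replicate 1, 2 or 3 gave 20, 24 and 22 members, with 13.4%, 13.7% and 12.4% of all genes. Early arrays varied more: the median SD over the 43 members was 0.197 on the log2 scale in the late group and 0.462 in the early group. For 37 members the SD was larger in the early group. Across all tested probe sets, late arrays had a median SD of 0.212 and early arrays one of 0.386. The wider spread of early arrays was thus not confined to the members. Because the samples are sorted populations, fewer cells that express a gene and less RNA of it per cell cannot be told apart.

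**Figure D1:**
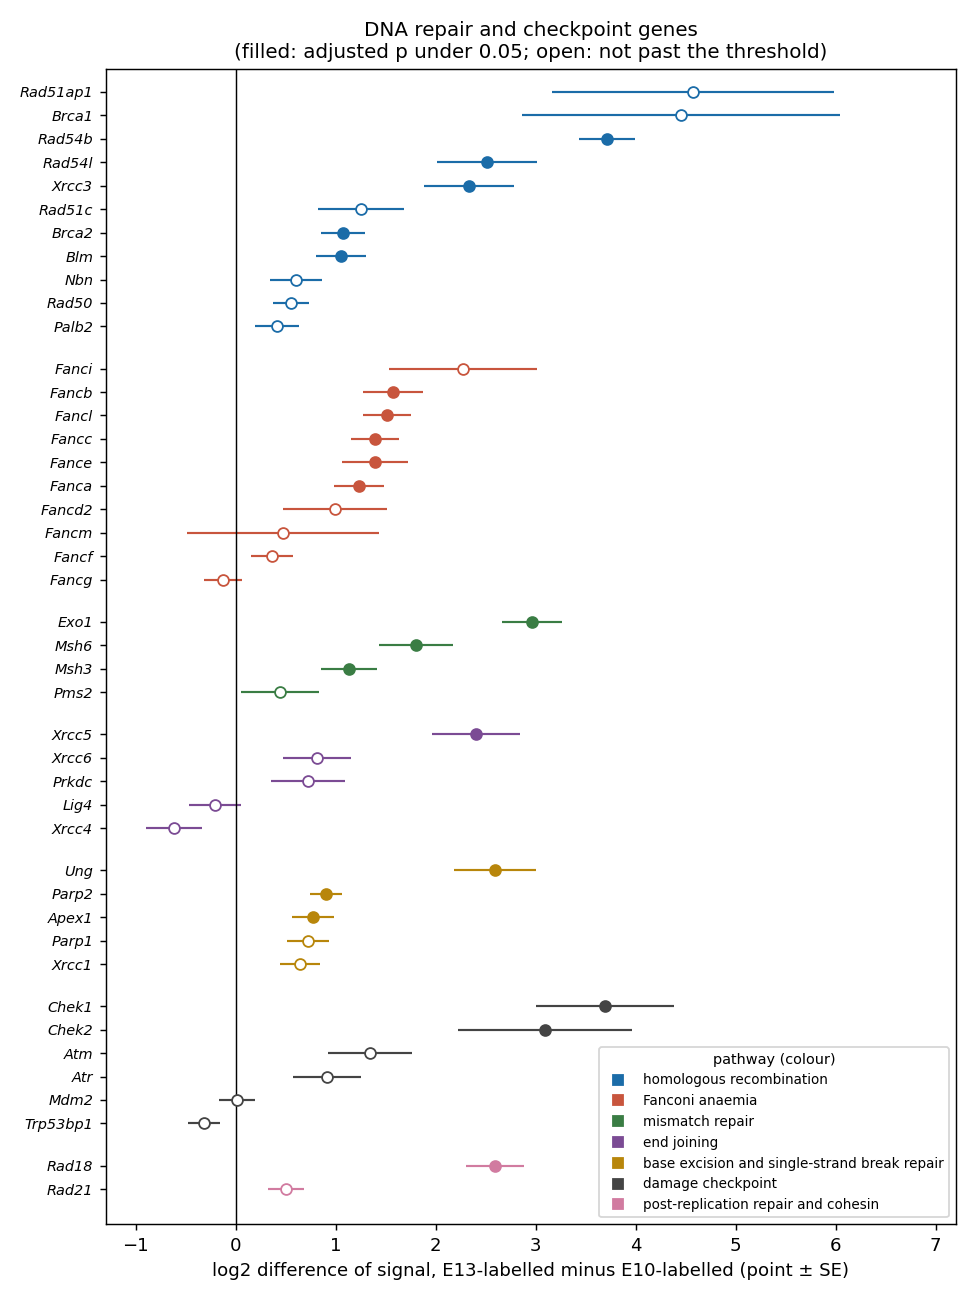
Log2 differences of signal, E13-labelled minus E10-labelled cells, of the 43 tested DNA repair and checkpoint genes, grouped by pathway (points with limma's SE; filled points passed an adjusted p of 0.05). The 20 filled points all lie to the right of 0, and Lig4, Xrcc4, Fancg and Trp53bp1 lie to its left without passing.

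The 5 called members with the largest differences that had an entry in the promoter table were Chek1, Chek2, Rad18, Ung and Rad54l, and the windows of 3 of them are shown because they hold letters linked to cell cycle transcription. Each window runs from 250 bases before to 50 bases after the annotated gene start (RefSeq, GRCm38.p6, with 37 of the 44 members matched). Capitals mark matches, on either strand, to TTTNNCGC or GCGGGAA, forms of the E2F binding letters that can overlap each other, and to CCAAT, the NF-Y box. GCGGGAA was added after the Chek1 window had been seen. The Chek1 window (chr9:36726609-36726908, minus strand) has GCGGGAA from base 44, counted from 1 at the gene start. In the Chek2 window (chr5:110839733-110840032, plus strand) a match to both E2F forms begins at base -152 and one to TTTNNCGC at base 6, with CCAAT boxes at -186 and -26. One CCAAT box at base -51 marks the Rad54l window (chr4:116123640-116123939, minus strand).
Chek1: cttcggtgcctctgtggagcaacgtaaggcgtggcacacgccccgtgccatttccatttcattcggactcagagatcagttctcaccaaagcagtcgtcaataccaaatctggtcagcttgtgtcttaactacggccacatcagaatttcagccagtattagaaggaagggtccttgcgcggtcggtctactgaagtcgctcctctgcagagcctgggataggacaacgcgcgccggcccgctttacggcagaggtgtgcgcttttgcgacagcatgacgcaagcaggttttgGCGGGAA
Chek2: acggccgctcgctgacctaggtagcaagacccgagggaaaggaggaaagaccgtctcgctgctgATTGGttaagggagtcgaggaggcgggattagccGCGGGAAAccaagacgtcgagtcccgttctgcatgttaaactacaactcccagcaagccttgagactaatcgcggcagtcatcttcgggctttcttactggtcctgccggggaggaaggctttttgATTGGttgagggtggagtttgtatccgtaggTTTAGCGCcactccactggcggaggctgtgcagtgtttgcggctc
Rad54l: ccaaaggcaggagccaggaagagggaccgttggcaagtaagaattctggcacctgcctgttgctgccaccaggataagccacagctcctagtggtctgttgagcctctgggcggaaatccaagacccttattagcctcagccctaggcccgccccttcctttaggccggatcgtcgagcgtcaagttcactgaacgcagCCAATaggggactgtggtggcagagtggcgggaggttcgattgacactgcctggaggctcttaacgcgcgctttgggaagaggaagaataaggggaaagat

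TTTNNCGC was present in 24.4% of the 41 windows of members and in 5.17% of all 32851 promoter windows, GCGGGAA in 34.1% and 4.60%, and CCAAT in 53.7% and 37.4%. TTTGAA, the letters of the CHR element of mitotic genes, was in 2.44% of the members' windows and in 17.9% of all. The members' windows also had more G and C, with a median of 60.0% against 52.7% over all windows, and a median of 24 CG dinucleotides against 7, and the E2F letters themselves contain CG. Among members, TTTNNCGC was in 20.0% of the windows of genes higher in late cells and in 25% of those of genes that did not pass, GCGGGAA in 25% and 40%, and CCAAT in 60% and 50%. These differences were not tested. Such a match describes the window and not binding. Both windows of Rad18 and the window of Ung held none of the 4 motifs.

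Of 11 tested homologous recombination genes, 5 were higher in late cells, against 14% of all tested genes. Rad51ap1, Brca1 and Rad54b had the largest fitted log2 differences of the recombination genes, which rest on very low early signals, and with the floor Chek1 had the largest fold of all members (11.5, against 11, 9.02 and 3.40). Rad54b, a DNA translocase of recombination, had signals of 364, 424.5 and 316 units in late arrays and 37.3, 19.8 and 29.6 units in early arrays. The early arrays were all below the array medians, and the fitted difference was 3.71 ± 0.28 on the log2 scale (SE; limma adjusted p = 0.00131). With lower signals set to the array median (the floored setting), Rad54b was 3.40-fold higher in late cells. Its relative Rad54l gave 1077, 803 and 910 units in late and 288, 74.0 and 200 units in early arrays, 5.69-fold apart (adjusted p = 0.0161, limma), and 2 of its 3 other tested probe sets also passed as higher in late cells.

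Xrcc3, which acts in recombination, stood at 198.5, 112 and 143 units in late and 55.5, 23.1 and 19.4 units in early arrays (limma adjusted p = 0.014). All early values were below the array medians, and with the floor at the median the difference shrank to 1.37-fold and no longer passed (adjusted p = 0.2). Brca2, a mediator of recombination, stood at 868, 905 and 688.5 units in late against 470, 384 and 326 units in early arrays, 2.09-fold apart (adjusted p = 0.0178, limma). The Bloom helicase gene Blm, whose product dissolves recombination intermediates, had 1973, 1636 and 1485 against 621, 839 and 1027 units, 2.08-fold apart (adjusted p = 0.0268, limma). In neither gene did the groups overlap. The calls of Rad54l and Xrcc3 were lost without late replicate 1 or 3, that of Brca2 without late replicate 1 or 2, and that of Blm without any one of the late replicates.

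Brca1 and Rad51ap1 had the largest fitted differences but did not pass, and their early arrays were widely spread. Brca1, the ubiquitin ligase that steers breaks toward recombination, had 2320, 2281 and 2498 units in late arrays, and 401, 7.0 and 448 units in early arrays. Every late array was far above the highest early one, and the low value of early replicate 2 gave a difference of 4.45 ± 1.59 (SE, log2; limma adjusted p = 0.0877). Without early replicate 2 the difference was 2.48, or 5.58-fold, and passed (adjusted p = 0.00346, limma), and with the floor at the array median it was 9.02-fold (adjusted p = 0.00349). Rad51ap1, an accessory factor of recombination, behaved alike, with 2887, 2522 and 1909 units in late and 174, 10.1 and 593 units in early arrays (limma adjusted p = 0.0586). Of its other tested probe sets, one at 143, 167 and 88.7 against 40.4, 62.2 and 124 units overlapped and did not pass (limma adjusted p = 0.194). The other, at 1189, 1103 and 964 against 128, 242 and 270 units, was 5.33-fold higher in late cells and passed (limma adjusted p = 0.00427). It passed on the representative probe set without early replicate 2 (7.49-fold, adjusted p = 0.0196) or early replicate 3 (57.3-fold, adjusted p = 0.0258, limma). Rad51c, which also acts in recombination, had 430, 220 and 299 against 125, 78.9 and 213 units and did not pass (adjusted p = 0.0785, limma).

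The members of the break-sensing complex differed less. Rad50 had 387, 414 and 446 units in late and 257, 313 and 282 units in early arrays, and Nbn, which recruits Atm to the break, 527, 447 and 596 against 297, 284 and 476 units. Neither passed (adjusted p = 0.0647 and 0.147, limma), and only for Rad50 were the groups apart. Palb2, the bridge between Brca1 and Brca2, had 119, 149 and 102 against 81.6, 108 and 88.5 units (limma adjusted p = 0.231). Bard1, the partner of Brca1, was not tested because its signals were low, with 162, 86.9 and 29.8 units in late and 2.57, 6.81 and 32.8 units in early arrays.

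**Figure D2:**
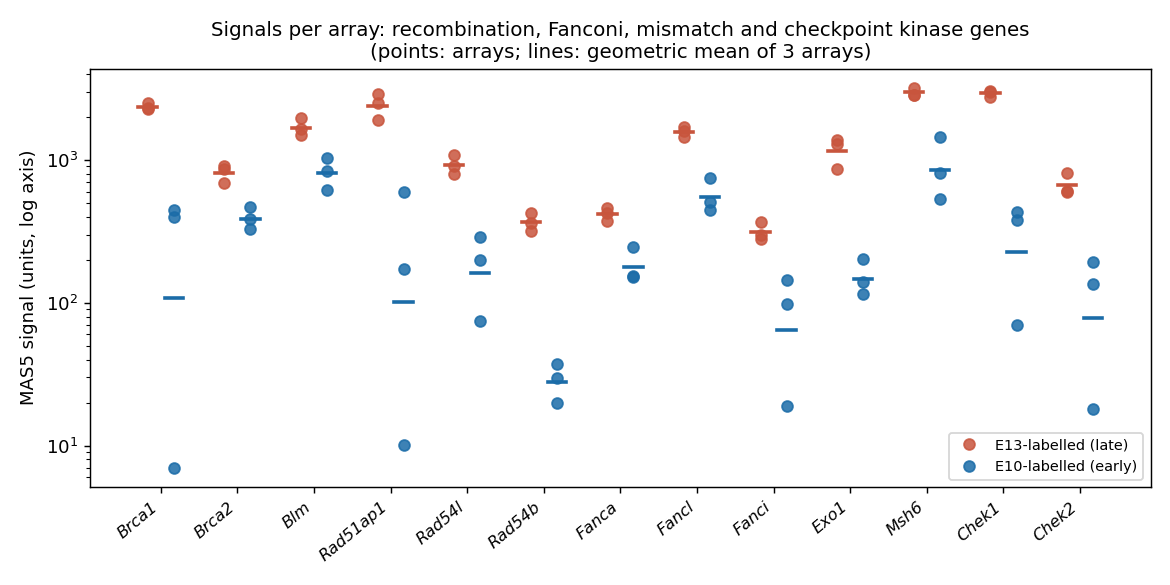
MAS5 signals (log axis) of 13 recombination, Fanconi, mismatch repair and checkpoint kinase genes, with E13-labelled arrays left of E10-labelled arrays for each gene (points are arrays, lines geometric means of 3). The late points lie above the early ones for all 13 genes shown, as they did for 31 of the 43 tested members and 26.4% of all tested genes. Palb2, Nbn, Fancd2, Fancf, Fancg, Fancm and Pms2, whose groups overlapped, are not plotted. The early points of Brca1, Rad51ap1, Chek2 and Fanci are spread most widely.

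Fanconi anaemia genes were higher in late cells for 5 of 10 tested members, against 14% of all tested genes. All 5 are parts of the core complex that attaches ubiquitin to the Fancd2 and Fanci pair. The 5 differences were close to each other, from 2.35-fold for Fanca to 2.97-fold for Fancb. Fancl, the ubiquitin ligase subunit, had 1599, 1438 and 1698 units in late and 446.5, 746 and 505 units in early arrays, 2.85-fold apart (limma adjusted p = 0.00775). Fancb, its partner in the catalytic module, had 331, 252 and 269 against 80.9, 145 and 73.7 units (adjusted p = 0.0142, limma). Both genes had a second tested probe set that did not pass, at log2 differences of 1.76 for Fancl and 0.31 for Fancb.

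Fancc had 335, 397 and 370 units in late and 189.5, 122 and 118 units in early arrays, 2.62-fold apart (adjusted p = 0.01, limma). Fanca had 423, 462 and 376 against 246, 153 and 151.5 units (adjusted p = 0.0169, limma), and Fance 121, 139 and 172 against 45.9, 41.1 and 85.2 units (adjusted p = 0.0267, limma). None of these groups overlapped. For Fance, whose early arrays were all below the median, the floored difference was 1.33-fold and did not pass (adjusted p = 0.167). The calls of Fanca and Fance were lost without any one of the late replicates, that of Fance also without early replicate 1 or 2, and that of Fancb without late replicate 1 or 3.

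The remaining Fanconi members did not pass. Fanci, which is ubiquitinated with Fancd2, had 366, 279 and 299 units in late and 18.9, 145 and 98.5 units in early arrays, 4.84-fold apart (limma adjusted p = 0.0689), and it passed without early replicate 1 (2.62-fold, adjusted p = 0.0208) or early replicate 2 (7.24-fold, adjusted p = 0.0384, limma). Fancd2 itself had 338, 237 and 177 against 105, 68.0 and 253 units (limma adjusted p = 0.211), with early replicate 3 above 2 of the late arrays. A second Fancd2 probe set, at 161, 171 and 130 against 48.3, 25.9 and 14.8 units, did pass (adjusted p = 0.00966, limma), but its early arrays were all below the median, and with the floor it was 1.42-fold higher and did not pass (adjusted p = 0.08).

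Fancf, an adaptor of the core complex, had 895, 779 and 603 units in late and 554, 646 and 550.0 units in early arrays (adjusted p = 0.257, limma). A second tested Fancf probe set went the other way, with 248, 270 and 214 units in late and 446, 325 and 306 units in early arrays. Its late arrays all lay below the early ones, and it did not pass (log2 difference -0.54, limma adjusted p = 0.122). Fancg, another core subunit, had 126, 144 and 169 against 144, 173 and 160.0 units, with a 95% interval of the log2 difference from -0.59 to 0.34. Fancm, the translocase that brings the complex to DNA, varied between the arrays of both groups, with 599, 235 and 874 against 584, 86.7 and 917 units. Replicate 2 was the low array in each group, and the sign of the Fancm difference turned without early replicate 2 (log2 difference -0.56).

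Mismatch repair genes were higher in late cells for 3 of 4 tested members, against 14% of all tested genes. Exo1, the exonuclease that removes the mismatched strand and also resects breaks, had 1376, 1294 and 861.5 units in late and 140, 201 and 114.5 units in early arrays, 7.81-fold apart (limma adjusted p = 0.00211). A second Exo1 probe set also passed (adjusted p = 0.00419, limma). Msh6, which recognises mismatches, had 2841, 2863 and 3212 against 1448, 532 and 810 units, 3.47-fold apart (adjusted p = 0.0179, limma). Msh3, which recognises loops, had 1341, 1267 and 1292 against 433, 861 and 567 units, 2.18-fold apart (adjusted p = 0.0311, limma). The calls of Msh6 and Msh3 were lost without any one of the late replicates, and that of Msh3 also without early replicate 1 or 3. The groups were apart in these 3 genes and overlapped in Pms2, an endonuclease subunit, with 379, 464.5 and 405 units in late and 548, 265.5 and 197 units in early arrays (adjusted p = 0.446, limma).

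End joining genes were higher in late cells for 1 of 5 tested members, or 20%, against 14% of all tested genes, and the difference from other pathways was not tested. Xrcc5, which encodes the Ku80 subunit of the ring that binds broken ends, had 910, 909 and 718 units in late and 139, 95.2 and 307 units in early arrays, 5.26-fold apart (limma adjusted p = 0.0116). Xrcc6, which encodes its Ku70 partner, had 1019, 792 and 852 against 524, 760 and 318 units, 1.76-fold apart, and did not pass (adjusted p = 0.132, limma), although it did without early replicate 2 (adjusted p = 0.042). Prkdc, the kinase that Ku recruits, had 601, 716 and 683 against 324, 290 and 709 units (adjusted p = 0.201, limma), with early replicate 3 among the late values.

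Neither ligation gene passed. Lig4, the ligase, had 735, 604 and 614 units in late and 697, 1043 and 576 units in early arrays, with a 95% interval of the log2 difference from -0.85 to 0.43. Its cofactor Xrcc4 had 140.5, 178 and 102 against 191, 267.5 and 180 units, with the late arrays below the early ones, at a log2 difference of -0.62 ± 0.28 (SE; limma adjusted p = 0.16). A second Xrcc4 probe set showed a log2 difference of -0.06. The intervals are wide, and equal levels of Lig4 in the 2 groups are not shown.

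Base excision and single-strand break repair genes all had late arrays above early arrays, against 26.4% of all tested genes. Of the 5 members 3 passed, against 14% of all tested genes. Ung, the glycosylase that removes uracil from DNA, differed most, with 3296, 2352 and 2267 units in late and 554, 237 and 617 units in early arrays, 6.01-fold apart (limma adjusted p = 0.00717). The representative probe sets of the other members differed by less than 2-fold. Parp2, a sensor of strand breaks, had 1650, 1769 and 1579 against 867, 912 and 905 units, 1.86-fold apart (adjusted p = 0.0112, limma), a call lost without late replicate 2.

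Apex1, the endonuclease that cuts at sites without a base, had 17390, 15230 and 16050 units in late and 8678, 11970 and 8246 units in early arrays, 1.71-fold apart (adjusted p = 0.0417, limma), and both its other tested probe sets passed too. The Apex1 call was lost in each fit that left out 1 array, except that without early replicate 2. Parp1, the main poly(ADP-ribose) polymerase, had 5745, 5121 and 5814 against 3807, 2674 and 3776 units and missed the threshold (adjusted p = 0.0513, limma), while 2 of its 3 other tested probe sets passed, at 1.95-fold and 2.33-fold (adjusted p = 0.0237 and 0.00624, limma). Xrcc1, the scaffold of single-strand break repair, had 1302, 1163 and 1005 against 731, 850 and 652 units, 1.55-fold apart (adjusted p = 0.0612, limma).

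**Figure D3:**
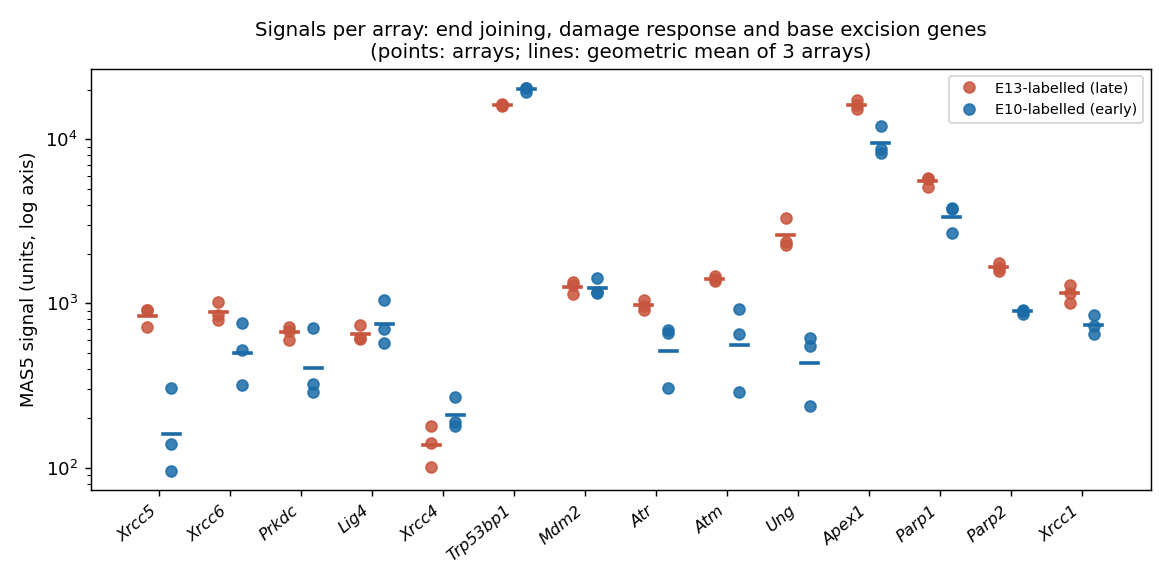
MAS5 signals (log axis) of 14 end joining, damage response and base excision genes, with E13-labelled arrays left of E10-labelled arrays (points are arrays, lines geometric means of 3). Ung and Xrcc5 are furthest apart, the base excision genes other than Ung are shifted by less, and Mdm2, Lig4 and Prkdc overlap. For Xrcc4 and Trp53bp1 all late points lie below the early ones, as for 26% of all tested genes.

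Among damage checkpoint genes the effector kinases were higher in late cells, and 2 of 6 tested members passed, against 14% of all tested genes. Chek1, whose promoter window is printed above, had 3062, 2978 and 2751 units in late and 434, 70.4 and 378.5 units in early arrays, at a log2 difference of 3.69 ± 0.69 (SE), or 12.9-fold (limma adjusted p = 0.0127). Another Chek1 probe set also passed (adjusted p = 0.00535, limma) and one more did not (adjusted p = 0.0682). Chek2 had 804, 598 and 609 against 192, 18.1 and 135 units, 8.53-fold apart (adjusted p = 0.0452, limma). Early replicate 2 was lowest in both genes, and without it they were 7.22-fold and 4.12-fold higher in late cells (adjusted p = 0.00346 and 0.00719, limma). The Chek2 call was lost without late replicate 1, 2 or 3 (adjusted p = 0.133, 0.112 and 0.12, limma) or early replicate 3 (0.059), and the Chek1 call without late replicate 1 (0.0516).

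The upstream kinases did not pass on their representative probe sets. Atm had 1402, 1470 and 1371 units in late and 918, 291 and 651 units in early arrays, 2.53-fold apart (limma adjusted p = 0.063). A second Atm probe set, at 1015, 883 and 916 against 401.5, 326 and 303 units, was 2.75-fold higher in late cells and passed (adjusted p = 0.00409, limma). Atr had 970, 908 and 1044 against 306, 685 and 656 units, 1.88-fold apart (adjusted p = 0.1, limma), and neither of its other tested probe sets passed. All 3 late arrays lay above the early ones for both kinases on these representatives.

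Mdm2, the ubiquitin ligase that keeps p53 low and is itself a p53 target, had 1142, 1303 and 1346 units in late and 1158, 1436 and 1173 units in early arrays, with a 95% interval of the log2 difference from -0.43 to 0.46. Trp53bp1, which protects broken ends from resection and so favours end joining, had 16060, 16380 and 15980 against 19340, 20560 and 20480 units, at a log2 difference of -0.32 ± 0.16 (SE; limma adjusted p = 0.189). Its probe sets disagreed. One, at 968, 985.5 and 1193 units in late and 1561, 1918 and 2186 units in early arrays, was 1.79-fold higher in early cells and passed (adjusted p = 0.0305, limma), and another showed a log2 difference of -0.04.

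Rad18, the ubiquitin ligase that marks the clamp at stalled forks for translesion synthesis, had 587, 661 and 831 units in late and 88.9, 163 and 101 units in early arrays, 6.04-fold apart (limma adjusted p = 0.00265). Neither of its other 2 tested probe sets passed, at log2 differences of 0.86 and 0.95. Rad21, the cohesin subunit that holds sister chromatids together, had 7341, 8796 and 7841 against 6055, 5146 and 5693 units, 1.42-fold apart, and did not pass (adjusted p = 0.083, limma).

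Over all probe sets of the members, 31 of 73 tested were higher in late cells, against 12.6% of all tested probe sets, and 1, that of Trp53bp1, was higher in early cells. In any direction 32 member probe sets passed, against 26% of all. Opposite calls within 1 gene occurred for 0 members. Of the 20 called genes, 8 had another tested probe set, and in 4 of them, Rad54l, Exo1, Apex1 and Chek1, another one passed in the same direction. For Exo1 and for 1 of the 2 of Rad54l that other probe set entered the test only through the late arrays, and that of Rad54l did not pass with the floor (adjusted p = 0.0786). In Fancb, Fancl, Msh3 and Rad18 none did. The calls of 7 genes, Exo1, Fancc, Fancl, Rad18, Rad54b, Ung and Xrcc5, were kept in each of the 6 fits that left out 1 array.

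Repair genes outside the 46 were counted in the same way. Of 116 tested genes in 7 lists of further repair and checkpoint genes, 42 were higher in late and 4 in early cells, and the median log2 difference was 0.63. These lists, too, were drawn up with earlier results of the arrays known. Further checkpoint genes were higher in late cells for 14 of 29, with Cdc25c, Tipin and Clspn at the largest fitted differences, Clspn being the adaptor through which Atr activates Chek1 (1048 ± 129 units in late and 164 ± 101 units in early cells, SD, n = 3 each, limma adjusted p = 0.0177). Further mismatch repair genes were higher for 8 of 12, and Pcna had 6820 ± 694 against 1151 ± 293 units (adjusted p = 0.00196, limma). Most of this list, the clamp Pcna, its loaders, a DNA ligase and polymerase delta subunits, also serves replication forks. Of the others, Pms1 was 3.45-fold higher in late cells (adjusted p = 0.00617, limma). Mlh3 did not pass, at a log2 difference of -0.27 (adjusted p = 0.313, limma). Further recombination genes were higher for 8 of 20, with Brip1, Dna2 and Rpa2 at the largest fitted differences, and further Fanconi and crosslink genes for 5 of 16, with Usp1, which removes ubiquitin from Fancd2, 4.27-fold higher in late cells (adjusted p = 0.00595, limma). Over the 7 lists 4 genes, Brip1, Rmi2, Neil3 and Cdc25c, entered the test only through the late arrays. Their differences thus follow partly from the filter. With the floor, Brip1 was 1.34-fold and Rmi2 1.21-fold higher, and neither passed (limma adjusted p = 0.125 and 0.336). Neil3 was 3.31-fold higher with the floor and Cdc25c 6.18-fold, the latter below Tipin at 10.1-fold.

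The counts of the other lists are read against 14% of all tested genes higher in late and 16.2% higher in early cells. Nucleotide excision repair genes were higher in late cells for 2 of 21, or 9.52% (Gtf2h4 and Ddb1), and in early cells for 1, the damage sensor Ddb2, at 449 ± 85.7 units in late and 861.5 ± 171 units in early cells (SD, n = 3 each, adjusted p = 0.032, limma). Further base excision genes passed as higher in late cells for 3 of 14, Neil3, Fen1 and Mutyh, and as higher in early cells for Polb (adjusted p = 0.0466, limma). Neil3 is among the genes that entered the test only through the late arrays. Further end joining genes were higher in late cells for 3 of 8, with Paxx, a Ku-binding factor, 1.99-fold higher in early cells (adjusted p = 0.0306, limma). In the Fanconi and crosslink list, Rev3l, the catalytic subunit of the translesion polymerase zeta, was higher in early cells, with 4031 ± 64.6 units in late and 15220 ± 1298 units in early cells (adjusted p = 0.0016, limma). Targets of p53 passed in both directions, 4 of 20 higher in late and 2 in early cells, with a median log2 difference of 0.08. Among the 4, Btg2 was 2.64-fold and Zmat3 2.54-fold higher in late cells (adjusted p = 0.0245 and 0.0287, limma). Plk2, a stress-induced polo-like kinase with roles at synapses, was 5.44-fold higher in early cells, and Cdkn1a, the main cell cycle inhibitor among the targets, stood at 638 units in late and 950 units in early cells on average (adjusted p = 0.0472, limma).

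Genes of replication and mitosis differed in the same direction as the repair genes, and genes of neuronal maturation in the opposite direction. Replication fork and licensing genes were higher in late cells for 30 of 35 tested, at a median log2 difference of 2.24, and mitotic genes for 30 of 31, at a median of 2.95. Genes of postmitotic neurons were higher in early cells for 14 of 20, at a median of -1.08. The median deviation of the repair genes from their own mean over the 6 arrays was 0.61, 0.53 and 0.55 on the log2 scale in late arrays 1 to 3 and -0.42, -0.57 and -0.43 in early arrays. For the replication genes it was 1.18, 1.08 and 1.02 against -0.86, -1.44 and -1.04, and for the neuronal genes -0.62, -0.54 and -0.44 against 0.62, 0.49 and 0.55. By these medians, early replicate 2 was the lowest array for the repair and the replication genes. Gene by gene, it was the lowest early array for 18 and the highest early array for 19 of the 43 repair genes. For the mitotic genes the deviations were 1.52, 1.51 and 1.44 against -1.24, -1.55 and -1.67, with early replicate 3 lowest. The part of the shares of dividing and postmitotic cells in the differences of the repair genes was not tested.

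**Figure D4:**
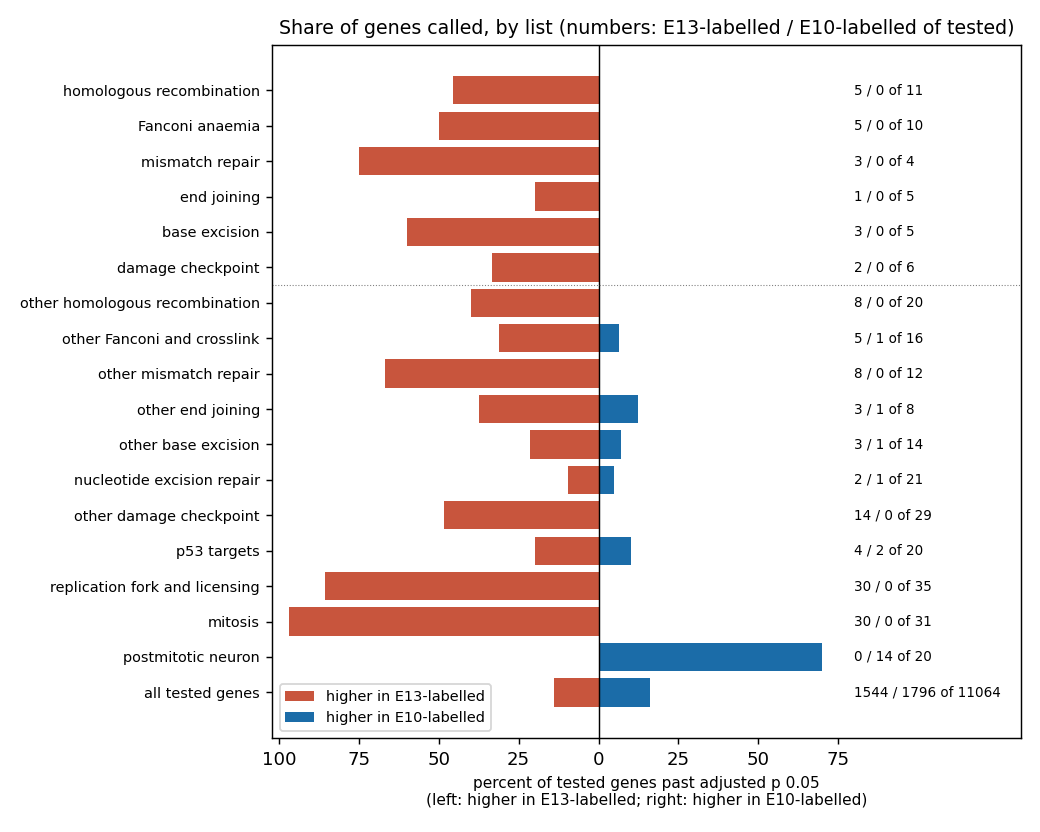
Percent of tested genes past an adjusted p of 0.05 in each list, higher in E13-labelled cells to the left and higher in E10-labelled cells to the right of 0, with the counts at the right edge (the 6 larger pathways of the 46 members lie above the dotted line). Bars to the left run from 20% for end joining to 75% for mismatch repair among the members, against 14% for all tested genes.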

How the data were processed

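RNA of EGFP-positive cells from 3 E13-labelled and 3 E10-labelled samples was hybridised to 1 Affymetrix 430 2.0 array each. The deposited values are MAS5 signal intensities, per the submitters' processing notes, on a linear scale. The authors' values have a trimmed mean of 500 on every array (2% left out at each end), as computed from the deposited intensities, and no further normalization was applied. Background correction and probe summarisation by the authors were kept, and raw scanner data were not used here. Of 45101 probe sets, 34958 carry 1 gene symbol in the platform annotation, 932 several and 9211 none, and 64 control probe sets were left out.

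Signals were log2 transformed and tested with limma 3.58.1 in R 4.3.3 (lmFit and eBayes, no covariate, both groups in 1 fit), and p-values were adjusted by Benjamini-Hochberg over the 23471 probe sets above the array median on at least 3 arrays. Fits that left out an array kept these probe sets. Each gene was represented by the brightest of the probe sets annotated to it alone (mean log2 over arrays). The script was tested on simulated data. Standard errors and intervals are limma's, and precision is limited by the number of arrays. Low MAS5 signals inflate log2 differences, so folds with signals raised to the array median were also computed. The members and all gene lists were chosen with earlier results of these data known. All members could be named; per-array values were to be given for up to 4 passing members of each pathway with the largest differences, any passing as higher in early cells and the brightest that did not pass, and those of further members were added. From each other list up to 3 genes with the largest passing differences were to be named. Polb, Cdkn1a, Csf1r, Rmi2, Pms1 and Mlh3 were named in addition after their values were seen. The labels do not say whether replicate numbers pair the samples. Deviations from the group means correlated at -0.029, -0.075 and -0.006 between same-numbered samples. With 3 samples per group, such correlations cannot show whether the samples were paired. Promoter windows came from RefSeq tables of GRCm38.p6, and 7 members had no entry.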

Additional observations from a re-analysis of the deposited data

How the results depend on the processing

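The 20 members higher in E13-labelled cells became 15 with the replicate number as a block (7.63% of all genes), with 1 in base excision repair and 1 checkpoint gene. Whether the numbers pair the samples is not stated in the labels. With no filter (3.22% of all genes) 7 members and 16 probe sets passed, with 1 each in recombination, Fanconi, mismatch, base excision and checkpoint genes. At a threshold of 0.01 (5% of all genes), 5 members and 11 probe sets passed, with 1 each in recombination, Fanconi, mismatch and base excision repair and 0 in end joining and checkpoint genes. Without both arrays numbered 3 (3.15% of all genes), 5 members and 10 probe sets passed, with 1 each in recombination, Fanconi and mismatch repair and 0 in base excision and checkpoint genes. Base excision repair had 5 with signals floored at the array median, 5 with the filter at the 70th percentile, 5 with the trend and robust settings and 1 at a 2-fold minimum. Post-replication genes had 2 with the 70th percentile filter and 2 with the trend and robust settings, which also gave 1 member higher in early cells. Fanconi genes had 2 with the 70th percentile filter and 1 with probe sets averaged per gene, which gave 1 for mismatch repair. Recombination genes had 3 without probe sets of the _s_at, _x_at and _a_at kinds. Leaving out each array in turn gave 8 to 24 members and 15 to 37 probe sets, 1 to 8 in recombination, 2 to 6 in Fanconi, 1 to 3 in mismatch, 1 to 2 in end joining, 1 to 3 in base excision and 0 to 3 in checkpoint genes. The other settings gave 17 to 26 members. The sign turned for Fancf with probe set means (-0.19), for Mdm2 without both arrays numbered 3 (-0.08) and without late replicate 2 (-0.01) or 3 (-0.04) or early replicate 1 (-0.04) or 3 (-0.03), and for Fancm (-0.56) and Lig4 (0.03) without early replicate 2. Over the 6 fits that left out 1 array, the log2 difference ran from -0.04 to 0.11 for Mdm2, -0.56 to 1.14 for Fancm and -0.4 to 0.03 for Lig4. Apart from fewer samples or a changed set of tested probe sets, the cause was not tested. Over all members and settings, 766 values kept their status, either called or not called. A call was lost in 93 values and gained in 51, and 8 changed sign. Exo1, Rad18 and Rad54b kept their calls in each alternative that gave a value for them. Signals near or below the array median, as in Bard1 and the early arrays of Rad54b, Xrcc3 and Fance, limit what can be said of fold sizes.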
